A study of Mus musculus with 14 samples.

Results

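The proteasome genes were the 51 genes whose symbol starts with Psma, Psmb, Psmc, Psmd, Psme, Psmf or Psmg followed by a digit, out of 14329 genes with values, and all 51 passed the filter on low counts that 12645 genes passed. They were measured by bulk RNA-seq of dorsal horn microglia, sorted by flow cytometry with the gate CD45low CD11b+ CX3CR1+, 2000 per sample, out of lumbar spinal cord (dorsal part) of 6-month-old mice. The study's gating scheme for microglia also leaves out cells that carry Ly6C or CCR2, which mark monocytes. The 14 libraries fell into 4 groups. WT mice, on a C57BL/6 background, received arthritogenic K/BxN serum (WT K/BxN ST, 4 libraries) or control serum from KRN/C57 mice (WT Control ST, 3 libraries). TASTPM mice are heterozygous double transgenics that carry human APP with the Swedish mutation (the TAS10 line) and another human transgene. A murine Thy-1 promoter, which is active in neurons, drives both transgenes. TASTPM mice received the same sera (TASTPM K/BxN ST, 4 libraries, and TASTPM Control ST, 3 libraries). The study used this model to ask how joint inflammation acts on spinal microglia when amyloid pathology is present. It sorted the microglia on the day after serum transfer at which joint swelling peaked. Mice of both sexes were used, and the sex behind each library is not known here.

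The proteasome degrades proteins tagged with ubiquitin chains. Its 20S core is built of alpha rings, which gate the entrance, and beta rings, which hold the proteolytic sites, and the 19S cap unfolds the substrate with a ring of ATPases. In cells exposed to interferon-gamma the catalytic subunits Psmb5, Psmb6 and Psmb7 can be replaced by Psmb8, Psmb9 and Psmb10, and the core can be capped by the PA28 activator made of Psme1 and Psme2. This immunoproteasome produces peptides suited to MHC class I molecules and is typical of immune cells, microglia included.

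Of the 51 genes, 7 encode the alpha ring, 7 the constitutive beta ring, 5 the immunoproteasome set (Psmb8, Psmb9, Psmb10, Psme1 and Psme2), 6 the 19S ATPases and 11 the other 19S subunits. Another 7 encode assembly chaperones, 3 encode other regulators of the core (Psme3, Psme4 and Psmf1) and 1 encodes Psma8, an alpha subunit of the testis. The remaining 4 share the spelling but encode no subunit. Psmc3ip is a meiotic recombination factor, Psme3ip1 a nuclear protein that binds Psme3, and Psme2b and Psma5-ps are copies of Psme2 and Psma5. Of the stretches of 30 bases in these copies, 76.98% occurred in a Psme2 transcript and 67.17% in a Psma5 transcript, so the split of reads between copy and parent is uncertain. Psmb11, the thymic beta subunit, was not analysed here.

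The start regions of 3 immunoproteasome genes are shown because this set is the one that interferon is known to induce. Each is 250 bases before and 50 bases after the RefSeq start, on build GRCm38.p6, printed in the direction of the gene. Capitals in the Psmb8 window mark the letters of a gamma-activated sequence (TTCNNNGAA), and capitals in the Psme1 window those of an interferon-stimulated response element core (GAAA, any 2 bases and GAAA again, here on the opposite strand). The Psmb9 window holds neither.
Psmb8, chr17:34197945-34198244, plus strand: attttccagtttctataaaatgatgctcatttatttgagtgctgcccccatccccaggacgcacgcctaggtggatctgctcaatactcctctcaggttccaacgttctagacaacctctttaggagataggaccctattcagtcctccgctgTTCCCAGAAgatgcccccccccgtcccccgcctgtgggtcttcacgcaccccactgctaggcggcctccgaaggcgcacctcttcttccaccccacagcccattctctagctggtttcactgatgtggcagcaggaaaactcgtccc
Psmb9, chr17:34187281-34187580, minus strand: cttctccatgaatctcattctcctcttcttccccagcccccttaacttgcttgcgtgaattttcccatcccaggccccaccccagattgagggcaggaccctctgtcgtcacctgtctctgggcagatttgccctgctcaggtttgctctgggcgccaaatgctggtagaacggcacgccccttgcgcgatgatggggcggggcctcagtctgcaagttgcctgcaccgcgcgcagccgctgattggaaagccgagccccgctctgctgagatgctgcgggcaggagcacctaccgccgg
Psme1, chr14:55578244-55578543, plus strand: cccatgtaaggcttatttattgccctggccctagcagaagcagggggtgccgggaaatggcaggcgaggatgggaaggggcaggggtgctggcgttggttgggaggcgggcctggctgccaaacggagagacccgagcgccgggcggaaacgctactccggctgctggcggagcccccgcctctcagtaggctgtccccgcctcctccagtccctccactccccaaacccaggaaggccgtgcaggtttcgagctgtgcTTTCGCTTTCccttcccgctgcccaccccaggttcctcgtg
Both strands were searched in the windows of all 32851 RefSeq starts, and 42 of the 51 proteasome genes had a window. The interferon-stimulated response element core was found in 3.443% of all windows and in 5 proteasome genes, Psmb3, Psmd4, Psmd9, Psme1 and Psmg4. The gamma-activated sequence was found in 8.298% of all windows and in 3 proteasome genes, Psmb8, Psmd2 and Psmg1. The core of the antioxidant response element (TGACNNNGC), the kind of element read by the factors that raise proteasome genes when the proteasome is impaired, was found in 12.39% of all windows and in 6 proteasome genes, among them Psmb5 and Psmb6 but no gene of the immunoproteasome set. The shares are of windows, while a gene was counted if any of its windows matched, so shares and gene counts are not directly comparable. These matches describe letters only, and a window without a match says nothing of a factor's binding elsewhere.

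The libraries held between 14223015 and 20239175 reads in genes. Reads on 10 microglia markers made up 5.712 to 7.407% of the reads in 10 libraries, all those of Control ST included. Of the 8 K/BxN ST libraries, 4 stood apart: WT K/BxN ST 1 and 2 and TASTPM K/BxN ST 1 and 2 had 2.21%, 0.613%, 2.25% and 1.92% of their reads on 20 monocyte and neutrophil markers, all of which had values, against 0.0276 to 0.0727% in the 10 others. On the 10 monocyte markers alone they had 0.892%, 0.551%, 1.06% and 0.713%, against 0.0013 to 0.0075% in the 10 others. Their Ly6c2 levels ran from 12898 to 29133 normalized counts and their Ccr2 levels from 8537 to 27035, although the gate leaves out cells with either protein, while the 10 others had at most 17.8 and 85.96. The summed share of neutrophil markers was high in 3 of the 4 only, and WT K/BxN ST 2 had 0.0623%, within the 0.0243 to 0.0708% of the 10 others. That share hides single markers, because Csf3r was the highest of them in each of the 10 others, at 3960 to 10517 normalized counts. WT K/BxN ST 2 had 6811 of Csf3r. Its Mmp8, at 3245, exceeded the 10 others, which had at most 59.97. So did its Camp (23.03, against at most 9.398), and its remaining neutrophil markers did not. In the 4 libraries, microglia markers made up 3.17%, 4.77%, 2.02% and 4.24% of the reads. Markers of border macrophages, at 0.0198%, 0.0102%, 0.0107% and 0.0074%, were also higher than in the 10 others, which had at most 0.0058%. The early response gene Fos had 354 to 1697 normalized counts in the 4 and at most 161 in the 10 others, whereas the share of all 7 dissociation stress genes overlapped (0.0429 to 0.0905% against 0.0249 to 0.0634%). Red cell markers stood out in WT Control ST 3 (0.242%, against at most 0.0276% elsewhere). Of the 4 dendritic cell markers with values, Flt3 (243 to 923 normalized counts) and Clec9a (11.7 to 24.7) were higher in the 4 libraries than in the 10 others, which had at most 127 and 0, and the summed share of the list overlapped. The endothelial marker Flt1 had 82.2 to 202 in the 4 and at most 4.51 in the others, whereas Pecam1 overlapped and Cldn5 and Cdh5 had no value. What part the border macrophage, dendritic cell, endothelial, stress and red cell markers have in the results was not tested. Values without these 4 libraries are given beside the results that rest on them. None of the 6 T or NK cell markers had a value.

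Among all 51 proteasome genes, none passed the threshold (adjusted p below 0.05 and an absolute log2 fold change above 1, limma) between K/BxN ST and Control ST, whether in WT, in TASTPM or averaged over genotypes, nor in edgeR or DESeq2 on the recovered reads. Over all genes tested, 0.00791% passed in WT and 0% in TASTPM and in the average in limma, 0% in each in edgeR, and 1%, 0.127% and 1.42% in DESeq2. At an unadjusted p below 0.05, limma gave 2 higher proteasome genes in WT (all genes, 4.77% higher), 0 in TASTPM (all genes, 2.62% higher) and 3 in the average (all genes, 5.79% higher), with 0 lower in each (all genes, 2.36%, 1.6% and 3.46% lower). edgeR gave 1, 0 and 4 higher genes (all genes, 4.18%, 2.7% and 6.82%) and DESeq2 3, 0 and 8 (all genes, 5.45%, 3.93% and 8.11%). Although single genes did not pass, most log2 fold changes were above 0: 41 of 51 in WT (all genes, 54%), 44 in TASTPM (all genes, 50.4%) and 45 in the average (all genes, 53.1%). The median log2 fold change of the 51 genes was 0.24 in WT, in TASTPM and in the average, against 0.06, 0.01 and 0.03 over all genes tested.

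That median rested on the 4 libraries high in monocyte markers. Without them it was -0.0049 in WT, -0.05 in TASTPM and -0.06 in the average, with 25, 22 and 18 of 51 genes above 0. With the monocyte and neutrophil score as a covariate in limma it was -0.03, -0.04 and -0.04. Leaving out WT K/BxN ST 1 alone lowered the WT median to 0.10, and leaving out TASTPM K/BxN ST 1 or TASTPM Control ST 3 lowered the TASTPM median to 0.09 or 0.11. In bulk RNA, a change in the number of cells of a type and a change in RNA per cell cannot be told apart.

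Normalized counts are read counts divided by 1 factor per library, so they compare a gene between libraries, and levels were compared between genes only per kilobase of transcript. Per kilobase, the highest mean over 14 libraries among the subunit genes was that of the beta subunit Psmb3, at 2484 normalized counts, and the lowest those of Psma8 (47.0) and of Psme4, the activator PA200 (45.1). On the same scale the means ran from 582 (Psma3) to 2412 (Psma7) in the alpha ring, from 393 (Psmb1) to 2484 (Psmb3) in the constitutive beta ring and from 573 (Psmc1) to 1379 (Psmc3) in the ATPases. They ran from 582 (Psmd11) to 1307 (Psmd6) in the other 19S subunits and from 198 (Psmd9) to 425 (Psmd10) in the assembly chaperones. These levels divide by 1 annotated transcript per gene, and the order depends on its length. For Psmb1, with 6002 bases, the mean of 2361 normalized counts before the division was the highest of its ring. Within the immunoproteasome set the mean over 14 libraries was 1634 normalized counts per kilobase for Psme2, 1552 for Psmb8, 1279 for Psmb10, 887 for Psmb9 and 444 for Psme1, whose transcript has 4227 bases. The constitutive counterparts had 1014 for Psmb5, 2240.2 for Psmb6 and 512 for Psmb7. The ratio of an inducible subunit to its counterpart per kilobase lay between 0.215 (Psmb9 to Psmb6) and 3.83 (Psmb10 to Psmb7) in all 14 libraries, those of Control ST included. Psma8 reached 226.7 normalized counts in TASTPM Control ST 1 and was at 0 in WT Control ST 1.

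Psmb8 encodes the inducible chymotrypsin-like subunit and lies at chr17:34416690-34420428 (GRCm39, GENCODE M39) in the MHC class II region. It shares 498 exonic bases with Gm20496 on the opposite strand. Of the 51 genes 27 share such bases with another gene, and since the counting is not stated to use strand, reads in these stretches cannot be assigned to one of the genes. Psmb8 had 2417, 1939 and 2223 normalized counts under WT Control ST against 4196, 3846, 2279 and 1550.5 under WT K/BxN ST. In TASTPM it had 1927, 2753 and 1546 in Control ST and 4746, 3278, 1904 and 2379 in K/BxN ST. In both genotypes K/BxN ST 1 and 2 lay above every Control ST library, whereas K/BxN ST 3 and 4 did not. The log2 fold change of K/BxN ST over Control ST was 0.33 ± 0.36 (SE) in WT (adjusted p = 0.825, limma) and 0.52 ± 0.36 in TASTPM (adjusted p = 0.964, limma).

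Psmb9, the inducible counterpart of Psmb6, lies at chr17:34400960-34406738, next to the peptide transporter gene Tap1 on the other strand. The 2 genes share 743 exonic bases. Psmb9 had 808, 1042 and 1137 normalized counts under WT Control ST against 1856, 1806, 816 and 1373 under WT K/BxN ST. It had 929, 1249 and 581 under TASTPM Control ST and 1769.9, 1743, 865 and 821 under TASTPM K/BxN ST. As for Psmb8, K/BxN ST 1 and 2 lay above every Control ST library of their genotype, and here WT K/BxN ST 4 did so too. The log2 fold change was 0.50 ± 0.37 (SE) in WT (adjusted p = 0.776, limma) and 0.47 ± 0.37 in TASTPM (adjusted p = 0.964, limma). Tap1 itself had 1827, 1107 and 1787 normalized counts under WT Control ST, 1634, 1892, 1601 and 1487 under WT K/BxN ST, 1396, 1169 and 1331 under TASTPM Control ST and 1569, 1567, 1073 and 1144 under TASTPM K/BxN ST. The Tap1 values of the K/BxN ST libraries overlapped those of Control ST in both genotypes.

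Psmb10, the inducible counterpart of Psmb7, lies apart from the MHC at chr8:106662362-106665077. It had 1770.5, 1628 and 1432 normalized counts under WT Control ST against 2299.7, 1677, 1417 and 1309.5 under WT K/BxN ST. It had 1530.3, 2119 and 1330.2 under TASTPM Control ST and 2484, 1891, 1397 and 1206 under TASTPM K/BxN ST. Only K/BxN ST 1 of each genotype exceeded all Control ST libraries of its genotype, and the group means differed by less than the spread between libraries. The log2 fold change was 0.03 ± 0.27 (SE) in WT (adjusted p = 0.985, limma) and 0.04 ± 0.27 in TASTPM (adjusted p = 0.992, limma), and it was negative in both when the 4 libraries high in monocyte markers were left out (-0.24 and -0.33).

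Psme1 and Psme2 encode the alpha and beta subunits of PA28 and lie near each other at chr14:55815190-55822034 and chr14:55824895-55829173. Psme1 had 1906, 1626 and 1204 normalized counts under WT Control ST, 2641, 2052, 1651 and 1260.5 under WT K/BxN ST, 1979, 2044 and 961 under TASTPM Control ST and 3028, 2558, 1761 and 1620.1 under TASTPM K/BxN ST. Psme2 had 1096, 1413 and 1154 normalized counts under WT Control ST, 2283, 2224, 1165 and 1131 under WT K/BxN ST, 1453, 1675 and 851 under TASTPM Control ST and 2707, 2412, 1459 and 1051 under TASTPM K/BxN ST. For both, K/BxN ST 1 and 2 were the highest libraries of each genotype and the remaining K/BxN ST libraries overlapped with Control ST. The log2 fold change of Psme1 was 0.24 ± 0.33 (SE) in WT and 0.46 ± 0.33 in TASTPM (adjusted p = 0.864 and 0.964, limma). That of Psme2 was 0.41 ± 0.36 in WT and 0.48 ± 0.36 in TASTPM (adjusted p = 0.80 and 0.964, limma). Psme1 shares 2192 exonic bases with Emc9 and Psme2 shares 731 with Rnf31, both on the opposite strand. Without the 4 libraries high in monocyte markers, the log2 fold changes in WT were -0.22 for Psmb8, 0.10 for Psmb9, -0.10 for Psme1 and -0.08 for Psme2. In TASTPM they were 0.08 for Psmb8, -0.06 for Psmb9, 0.10 for Psme1 and -0.04 for Psme2. All of these were smaller than the SE of the fit with all libraries.

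**Figure D1:**
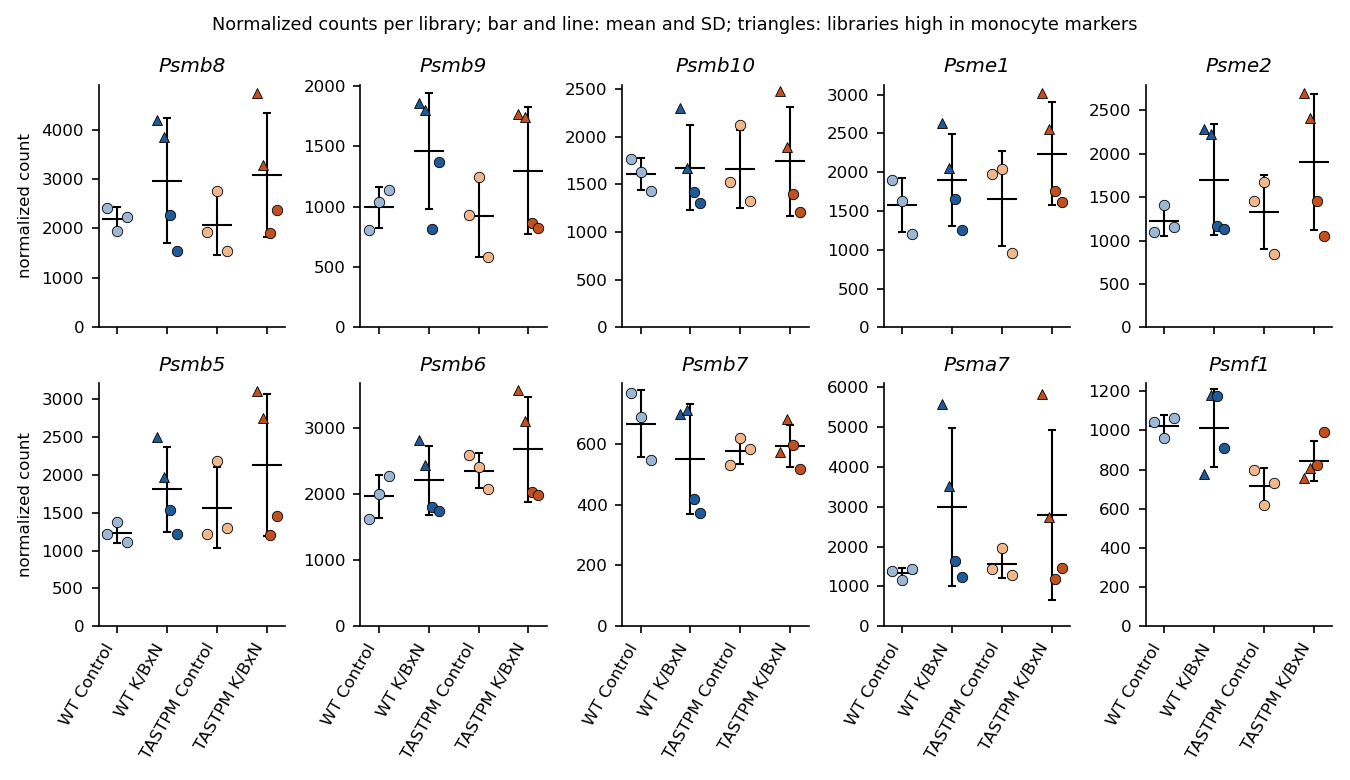
Normalized counts (y axis, from 0) of the 5 immunoproteasome genes, their counterparts Psmb5, Psmb6 and Psmb7, and Psma7 and Psmf1, in each of the 14 libraries by group (x axis); the horizontal bar and the vertical line are the group mean and SD, and triangles mark the 4 libraries high in monocyte markers. For Psmb8, Psmb9, Psme1 and Psme2 the 4 triangles lie above all 10 circles, and for Psma7 they reach 5841 normalized counts.

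The constitutive catalytic subunits were measured beside their inducible counterparts. Psmb5, the chymotrypsin-like subunit that Psmb8 replaces, had 1212, 1379.8 and 1114 normalized counts under WT Control ST, 2498, 1977, 1534 and 1218 under WT K/BxN ST, 1212, 2177 and 1297 under TASTPM Control ST and 3103, 2746, 1210.0 and 1461 under TASTPM K/BxN ST. K/BxN ST 1 and 2 exceeded every Control ST library of their genotype. Its log2 fold change was 0.50 ± 0.34 (SE) in WT and 0.39 ± 0.34 in TASTPM (adjusted p = 0.774 and 0.964, limma). Psmb6, the caspase-like subunit, had 1616, 2006 and 2273 normalized counts under WT Control ST, 2825, 2444, 1808 and 1747 under WT K/BxN ST, 2592, 2403 and 2069.8 under TASTPM Control ST and 3576, 3106, 2035 and 1992 under TASTPM K/BxN ST, with log2 fold changes of 0.15 ± 0.25 and 0.14 ± 0.25 (adjusted p = 0.892 and 0.969, limma). Again K/BxN ST 1 and 2 were the highest libraries of each genotype, and K/BxN ST 3 and 4 lay lower. Psmb7, the trypsin-like subunit, had log2 fold changes of -0.32 ± 0.27 in WT and 0.03 ± 0.27 in TASTPM (adjusted p = 0.791 and 0.992, limma). Without the 4 libraries high in monocyte markers, the WT values were 0.15 for Psmb5, -0.13 for Psmb6 and -0.74 for Psmb7, and the TASTPM values -0.18, -0.22 and -0.05, so that the sign turned for Psmb6 in both genotypes and for Psmb5 and Psmb7 in TASTPM.

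Whether the balance moved from constitutive to inducible catalytic subunits was asked with the log2 ratio of each pair, which cancels a change common to both. The log2 ratio of Psmb8 to Psmb5 was 0.996, 0.49 and 0.997 under WT Control ST, 0.75, 0.96, 0.57 and 0.35 under WT K/BxN ST, 0.67, 0.34 and 0.25 under TASTPM Control ST and 0.61, 0.26, 0.65 and 0.70 under TASTPM K/BxN ST. The groups overlapped in each genotype, and the difference between K/BxN ST and Control ST averaged over genotypes was -0.02 ± 0.13 (SE, exact permutation test, two-sided, p = 0.899). Per kilobase, Psmb8 was 1.55 ± 0.28 times as abundant as Psmb5 (SD, n = 14). The log2 ratio of Psmb9 to Psmb6 was -0.999, -0.94 and -0.999 under WT Control ST, -0.61, -0.44, -1.15 and -0.35 under WT K/BxN ST, -1.48, -0.94 and -1.83 under TASTPM Control ST and -1.01, -0.83, -1.23 and -1.28 under TASTPM K/BxN ST. It averaged 0.34 ± 0.16 (SE) higher after K/BxN ST (exact permutation test, two-sided, p = 0.0539, adjusted p = 0.571 over 15 tests), with 3 of 4 WT K/BxN ST libraries above all WT Control ST libraries. Per kilobase Psmb9 stood at 0.394 ± 0.106 of Psmb6 (SD, n = 14).

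The log2 ratio of Psmb10 to Psmb7 was 1.21, 1.24 and 1.39 under WT Control ST, 1.72, 1.23, 1.76 and 1.80 under WT K/BxN ST, 1.53, 1.77 and 1.19 under TASTPM Control ST and 2.11, 1.47, 1.23 and 1.22 under TASTPM K/BxN ST. Its difference was 0.35 ± 0.16 (SE) in WT (exact permutation test, two-sided, p = 0.114, adjusted p = 0.571) and 0.01 ± 0.29 in TASTPM (exact permutation test, p = 0.971). Psmb7, whose 2817 exonic bases shared with Nek6 leave its count uncertain, had 767, 689 and 546 normalized counts under WT Control ST, 699, 713, 418 and 374 under WT K/BxN ST, 529.6, 618 and 584 under TASTPM Control ST and 574, 684, 596 and 518 under TASTPM K/BxN ST. Between genotypes, the ratio of Psmb9 to Psmb6 was 0.46 ± 0.21 (SE) lower in TASTPM than in WT under K/BxN ST on the log2 scale (difference -0.46, exact permutation test, two-sided, p = 0.0857, adjusted p = 0.571). Without the 4 libraries high in monocyte markers, the average difference of Psmb9 to Psmb6 between sera was 0.20 (exact permutation test, p = 0.35) and the WT difference of Psmb10 to Psmb7 was 0.50 (exact permutation test, p = 0.1, the smallest 2 against 3 libraries allow two-sided). No ratio passed the threshold among the 15 tests, which covered 3 pairs in 5 comparisons. The smallest two-sided p the design allows was 0.0286 for 4 against 3 libraries and for 4 against 4, and 0.1 for 3 against 3. For the exact permutation test averaged over genotypes it was 0.000816.

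**Figure D2:**
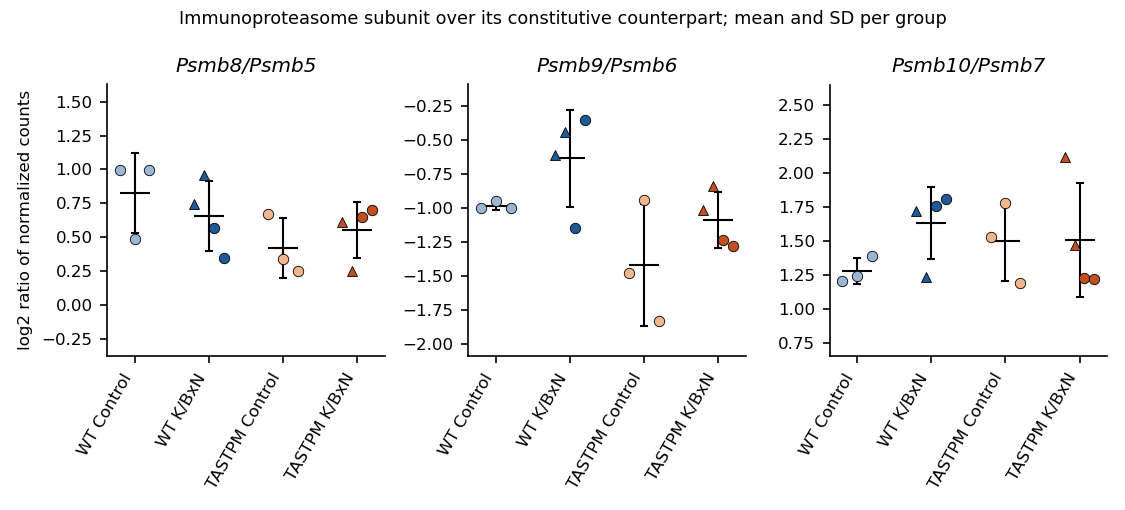
Log2 ratio of normalized counts (y axis, each panel spanning the same 2 log2 units) of Psmb8 to Psmb5, Psmb9 to Psmb6 and Psmb10 to Psmb7 in each library by group (x axis), with the group mean and SD; triangles mark the 4 libraries high in monocyte markers. The groups overlap in each panel, and the triangles do not form a separate level as they do for the single genes.

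The distance of the 4 libraries from the rest varied by subunit group, which is given as a description without a test. Relative to the mean of the Control ST libraries of its genotype, the median log2 ratio of the 7 constitutive beta genes was 0.92, 0.42, 0.03 and -0.16 in WT K/BxN ST 1 to 4 and 1.01, 0.70, 0.05 and -0.04 in TASTPM K/BxN ST 1 to 4. That of the 5 immunoproteasome genes was 0.91, 0.82, -0.06 and -0.29 in WT and 1.01, 0.70, -0.02 and -0.09 in TASTPM. The 6 ATPase genes stood at 0.42, 0.09, -0.05 and -0.10 in WT and at 0.43, 0.42, 0.06 and 0.02 in TASTPM. The constitutive beta and the immunoproteasome genes were thus about 1 log2 unit above Control ST in K/BxN ST 1 of either genotype, while the median of all genes tested stayed between 0.01 and 0.11 in the 8 K/BxN ST libraries. The alpha ring lay below both of these groups in each of the 4 libraries, at 0.66, 0.33, 0.10 and -0.09 in WT and 0.64, 0.36, -0.33 and -0.23 in TASTPM. The 7 assembly chaperone genes followed another order, with the highest median in WT K/BxN ST 3 (0.93). Their WT reference was uneven, with medians of -0.58 in WT Control ST 1 and 0.31 in WT Control ST 3. As a share of reads, these genes were higher in WT K/BxN ST 1 (0.0251%) than in WT K/BxN ST 3 (0.02345%).

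**Figure D3:**
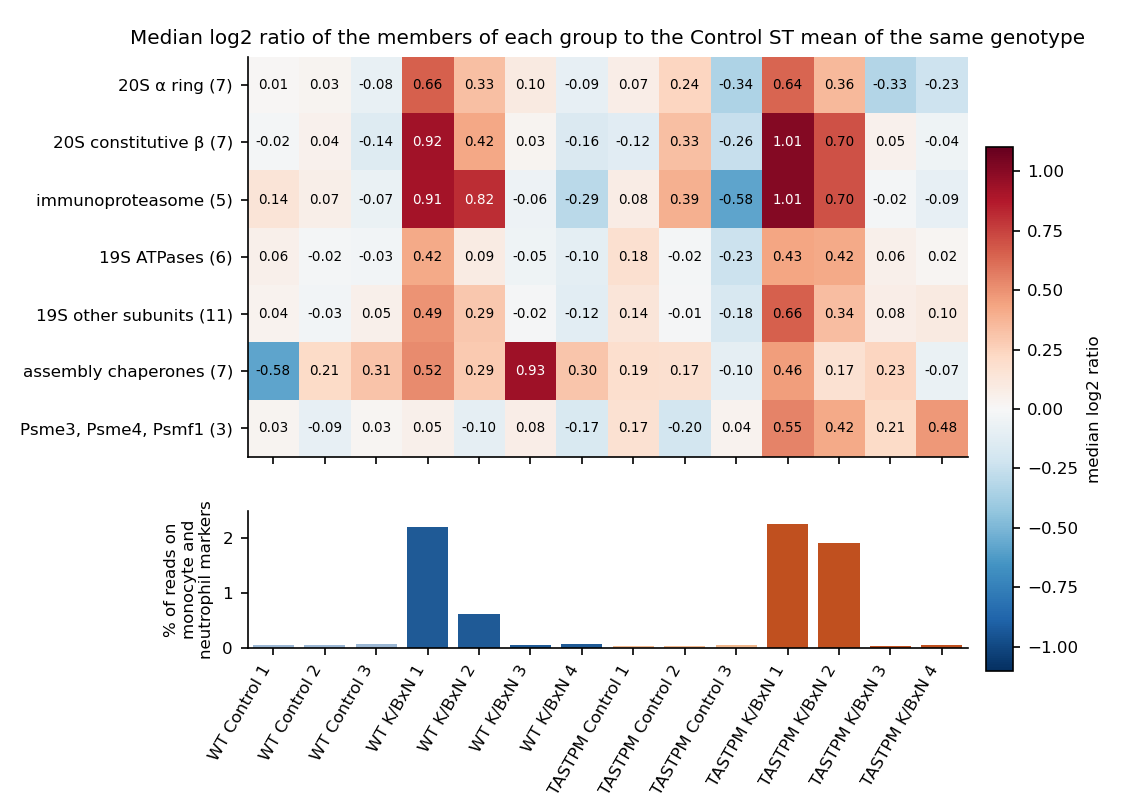
Above, median log2 ratio of the genes of each proteasome group (rows, number of genes in brackets) to the mean of the Control ST libraries of its genotype in each library (columns), with the values written in the cells and on the colour scale; below, percent of reads on 20 monocyte and neutrophil markers in the same libraries. WT K/BxN ST 1 and 2 and TASTPM K/BxN ST 1 and 2 have the highest bars and the highest medians of the constitutive beta and immunoproteasome rows.

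Of the 51 proteasome genes, 14 were higher in each of these 4 libraries than in all 10 others, against 7.63% of all genes tested. They comprised 4 of 5 immunoproteasome genes (Psmb10 was the exception), 3 of 7 alpha genes (Psma2, Psma4 and Psma7), 3 of 7 constitutive beta genes (Psmb2, Psmb3 and Psmb4), 3 of 11 other 19S genes (Psmd3, Psmd8 and Psmd13) and the copy Psme2b, with 0 of 6 ATPase genes and 0 of 7 assembly chaperone genes. Psma7, an alpha subunit, had the highest ratio, with 1382, 1174 and 1431 normalized counts under WT Control ST, 5582, 3518, 1627 and 1242 under WT K/BxN ST, 1444, 1957 and 1299 under TASTPM Control ST and 5841, 2743, 1182 and 1451 under TASTPM K/BxN ST. Its mean in the 4 libraries was 3.05 times the Control ST mean, and in the 4 other K/BxN ST libraries 0.95 times. Despite this, limma gave an adjusted p of 0.734 in WT (log2 fold change 0.92 ± 0.53, SE) and 0.964 in TASTPM (0.57 ± 0.53), and the K/BxN ST libraries spread from 1182 to 5841. The log2 fold change of Psma7 without the 4 libraries was 0.10 in WT and -0.24 in TASTPM. Next among these 14 genes was Psmd8, a subunit of the 19S lid, at 2.07 times the Control ST mean in the 4 libraries and 0.964 times in the 4 others. Psmg4, whose libraries overlapped, had a ratio of 2.32. Over the 51 genes the median of these ratios was 1.38 in the 4 libraries and 0.95 in the 4 others, and over all genes tested 0.942 and 0.991.

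The proteasome genes also differed in how far libraries of 1 group lay apart. The median within-group SD of the 51 genes on the log2 scale was 0.324 in Control ST and 0.406 in K/BxN ST, below the 0.566 and 0.591 of all genes tested. For the immunoproteasome genes it was 0.389 in Control ST and 0.582 in K/BxN ST, and for the constitutive beta genes 0.306 and 0.508, whereas the ATPase genes had 0.338 and 0.312. The K/BxN ST values include the 4 libraries high in monocyte markers, and SDs without those libraries were not calculated. Over the 14 libraries, the deviations from the group mean of Psmb10, Psme2, Psmb8, Psme1 and Psmb9 had Pearson's r of 0.967, 0.940, 0.926, 0.883 and 0.816 with the median deviation of the 14 core genes. The lowest values were those of Psmf1 (-0.517), the inhibitor PI31, and of Psme4 (-0.235). These r values only describe the libraries, which share scaling and the marker difference above.

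The proteasome genes with the smallest p-values in the serum comparisons are named by rank, not as changed genes. In WT they were Psmc3ip and Psme3ip1, neither of which encodes a subunit, and Psmd5, a chaperone of 19S assembly. Psmc3ip had 109.7, 0 and 0 normalized counts under WT Control ST against 66.8, 62.0, 160.1 and 49.1 under WT K/BxN ST, so that its fitted log2 fold change of 3.996 ± 1.64 (SE, adjusted p = 0.684, limma) depends on the pseudocount, and the groups overlapped. Without WT Control ST 1 it was 6.26, and without WT Control ST 2 or 3 it was 2.865. Psmc3ip also shares 1109 exonic bases with Mlx on the opposite strand, so its count is uncertain. Psme3ip1 had 259, 656 and 481 under WT Control ST and 1026, 929.9, 787 and 609.5 under WT K/BxN ST (log2 fold change 0.92 ± 0.40, adjusted p = 0.684, limma). Its lowest K/BxN ST library lay below the highest Control ST library. Psmd5 had 703, 982 and 1147 under WT Control ST and 1559.9, 1127, 1767 and 1046 under WT K/BxN ST (log2 fold change 0.54 ± 0.26, adjusted p = 0.699, limma), and these groups overlapped as well. Without WT Control ST 1 the values fell to 0.55 for Psme3ip1 and 0.34 for Psmd5, which share 595 and 1103 exonic bases with genes on the opposite strand.

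In TASTPM the smallest p-values were those of Psmd2, Psmd4 and Psmd3, all 19S subunits. Psmd2, a scaffold of the 19S base, had 2785, 1652 and 2596 normalized counts in Control ST and 3879, 4198, 2445 and 3053 in K/BxN ST (log2 fold change 0.54 ± 0.26, adjusted p = 0.964, limma). Its log2 fold change was 0.30 without TASTPM Control ST 2, and 0.26 without the libraries high in monocyte markers, which held its 2 highest values. Psmd4, a receptor for ubiquitin chains, had 1421, 1666 and 1256 in Control ST and 2269, 1822, 1693 and 1858 in K/BxN ST (log2 fold change 0.40 ± 0.21, adjusted p = 0.964, limma). Part of the Psmd4 count, 592 exonic bases shared with a gene on the opposite strand, is uncertain. Psmd4 was the single proteasome gene whose groups did not overlap in TASTPM, where 2.67% of all genes tested were higher without overlap. In WT no proteasome gene was higher without overlap, against 3.67% of all genes, and 0 were lower without overlap in either genotype, against 3.71% in WT and 2.74% in TASTPM. Averaged over genotypes, the smallest p-values after Psmc3ip were those of Psmd14, the 19S enzyme that removes ubiquitin chains (log2 fold change 0.44 ± 0.19, adjusted p = 0.536, limma), and Psmg4, a chaperone of core assembly (0.85 ± 0.40, adjusted p = 0.536, limma). Psmd14 had 790.1, 1246 and 1324 under WT Control ST, 1938, 1468, 1280.5 and 1289 under WT K/BxN ST, 1174, 1522 and 1027 under TASTPM Control ST and 2164, 1834, 1776 and 1084 under TASTPM K/BxN ST. Here too TASTPM K/BxN ST 1 and WT K/BxN ST 1 were the highest libraries of their genotype. Without the 4 libraries high in monocyte markers, the log2 fold change was 0.30 for Psmd4 in TASTPM, and in the average it was 0.21 for Psmd14 and 0.42 for Psmg4.

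**Figure D4:**
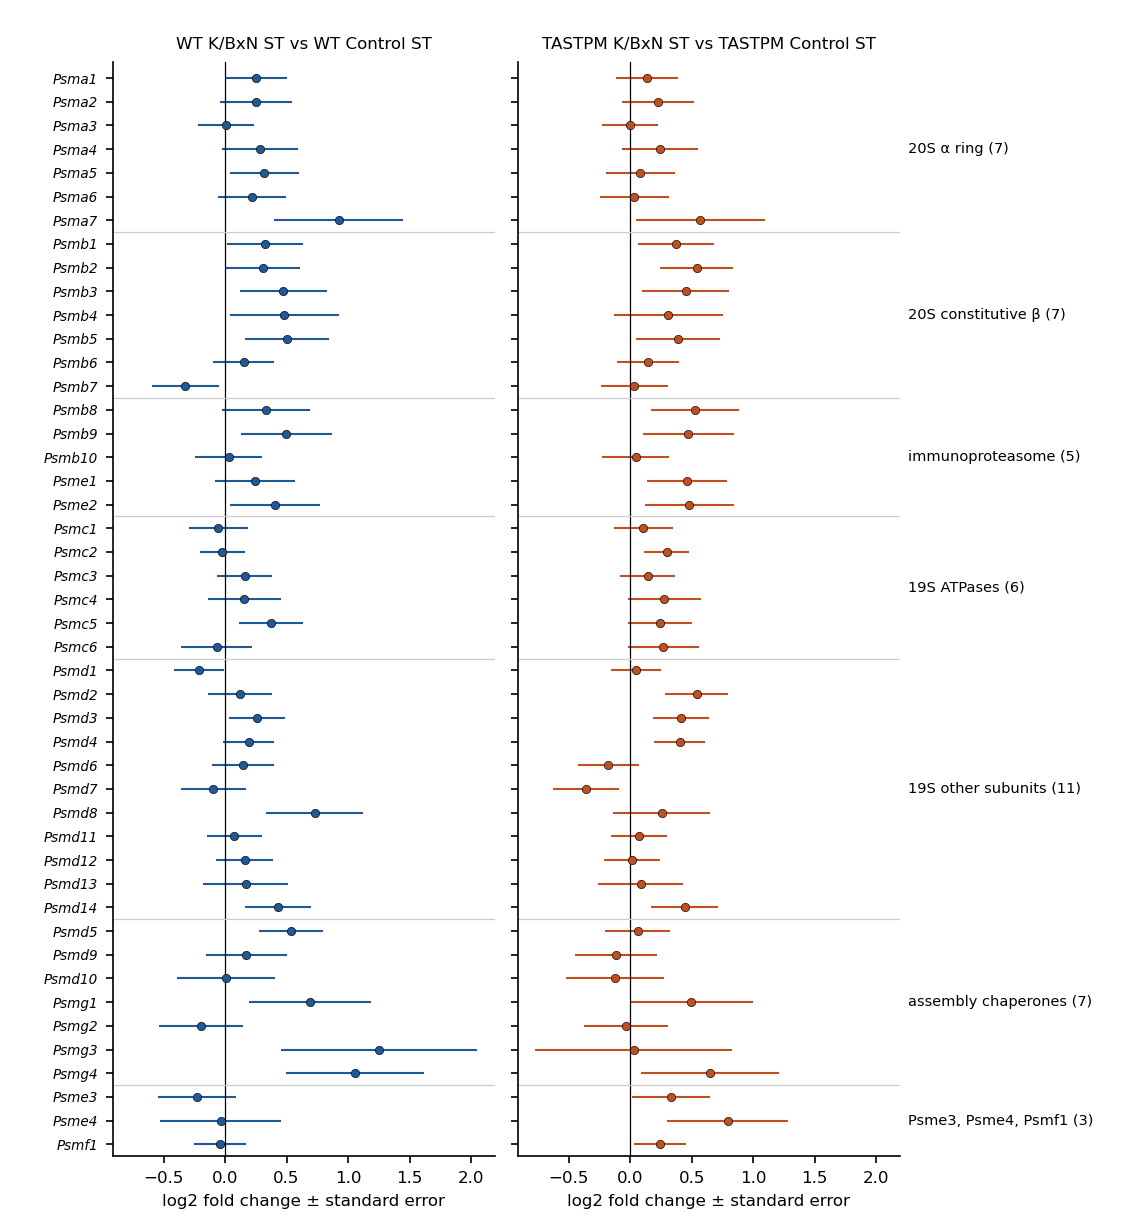
Log2 fold change of K/BxN ST over Control ST with its standard error (x axis, limma) for 46 proteasome genes (y axis, ordered by subunit group), in WT on the left and TASTPM on the right; the 4 genes that encode no subunit and Psma8 are not drawn. Most points lie right of 0 in both panels, and no gene passed the threshold.

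Whether the response to K/BxN ST differed between genotypes was tested as an interaction. Of the 51 genes 0 passed the threshold and 0 had an unadjusted p below 0.05 in limma, edgeR or DESeq2, where 0% of all genes passed in limma and edgeR and 0.0949% in DESeq2. At that unadjusted p, 1.42% of all genes were higher and 1.63% lower in limma, 1.07% and 1.53% in edgeR, and 1.41% and 1.77% in DESeq2. The interaction of the immunoproteasome genes ranged from -0.03 (Psmb9) to 0.22 (Psme1), with SE of 0.38 to 0.52 and an adjusted p of 0.999 for each (limma). The smallest p-values were those of Psme3ip1 (-1.04 ± 0.56), Psmd5 (-0.48 ± 0.37) and Psme3, the nuclear PA28 gamma (0.56 ± 0.45), with an adjusted p of 0.999 for each (limma). Leaving out 1 library at a time, Psme3ip1 ran from -1.335 to -0.67, Psmd5 from -0.63 to -0.28 and Psme3 from 0.28 to 0.83. The 2 serum comparisons gave Psme3 a log2 fold change of -0.23 ± 0.32 in WT and 0.33 ± 0.32 in TASTPM, or -0.44 and 0.04 without the 4 libraries high in monocyte markers. Psme3 had 2425, 1162 and 1724 normalized counts under WT Control ST, 1774, 1584, 1247 and 1257 under WT K/BxN ST, 1914, 890.4 and 1307 under TASTPM Control ST and 2137, 1913, 1054 and 1700.2 under TASTPM K/BxN ST, and all groups overlapped. Psme4, the activator PA200, had 141, 570.0 and 218 under WT Control ST, 269, 176, 274 and 317 under WT K/BxN ST, 106, 309 and 263 under TASTPM Control ST and 299, 274, 451 and 432 under TASTPM K/BxN ST (interaction 0.83 ± 0.70, adjusted p = 0.999, limma). Its groups overlapped too, and the widest of them was WT Control ST.

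TASTPM was next compared with WT under the same serum. Under Control ST, 0 of 51 genes passed the threshold in limma, edgeR or DESeq2 (all genes, 0% in limma and edgeR and 0.324% in DESeq2), and in limma 1 had an unadjusted p below 0.05, lower in TASTPM (all genes, 2.16% lower and 3.41% higher). This was Psmf1, which binds the core and inhibits it in vitro. Of the 51 genes, 36 had a log2 fold change above 0 (all genes, 53.2%). Psmf1 shares 942 exonic bases with Tmem74b on the opposite strand. Its levels were 1045, 962 and 1063 normalized counts under WT Control ST against 798, 617 and 729 under TASTPM Control ST. The groups did not overlap, as for 4.71% of all genes in this direction (4.97% in the other, with 0 proteasome genes). The log2 fold change was -0.52 ± 0.23 (SE, adjusted p = 0.847, limma). Under K/BxN ST it had 777, 1178, 1175 and 910.5 in WT and 756, 809, 822 and 989 in TASTPM, where the groups overlapped (log2 fold change -0.24 ± 0.20, adjusted p = 0.9998, limma).

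Under K/BxN ST, 0 of 51 genes passed the threshold in TASTPM against WT in limma, edgeR or DESeq2 (all genes, 0%), and 0 had an unadjusted p below 0.05 (all genes, 1% higher and 0.902% lower). A log2 fold change above 0 was seen for 37 genes (all genes, 49.9%), for 28 without the 4 libraries high in monocyte markers and for 26 without TASTPM K/BxN ST 1. The median of the 51 genes was 0.13, and without those libraries 0.08 and 0.0039. Psmg1, a chaperone that starts assembly of the alpha ring, had 175, 214, 263 and 154 normalized counts under WT K/BxN ST and 407, 290.1, 428 and 316 under TASTPM K/BxN ST, without overlap, as 1.16% of all genes were higher. Its log2 fold change was 0.84 ± 0.46 (adjusted p = 0.9998, limma). Under Control ST it was 1.04 ± 0.53 (adjusted p = 0.886, limma), from 55.3, 102 and 319 in WT and 205, 336 and 231 in TASTPM, and it was 0.47 without WT Control ST 1 and 1.73 without WT Control ST 3. Psmd9, a chaperone of the 19S base, had 723, 531, 561 and 637 under WT K/BxN ST and 406, 458, 430.0 and 341 under TASTPM K/BxN ST, lower without overlap, as 0.672% of all genes were (log2 fold change -0.58 ± 0.31, adjusted p = 0.9998, limma). The immunoproteasome genes had log2 fold changes between genotypes from -0.17 to 0.07 under Control ST and from -0.19 to 0.24 under K/BxN ST, each smaller than its SE of 0.25 to 0.39.

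The genes that work with the proteasome were read from 2 lists. Of 27 ubiquitin-proteasome partners, among them the assembly factor Pomp and the factor Nfe2l1, 0 passed the threshold in any of the 6 comparisons, and their median log2 fold change was 0.07 in WT and 0.12 in TASTPM for K/BxN ST, or 0.02 and 0.03 without the 4 libraries high in monocyte markers. For K/BxN ST in TASTPM, 1 of them had an unadjusted p below 0.05 and was lower (all genes, 1.6%), the ubiquitin receptor Ubqln2 (log2 fold change -2.26 ± 0.68, adjusted p = 0.964, limma), which was also the 1 gene below 0.05 in the average, against 0 of 27 in WT. Of 22 genes of interferon control and class I peptide supply, 0 passed in any of the 6 comparisons, and their median log2 fold change was -0.01 in WT and 0.02 in TASTPM, where the immunoproteasome genes had medians of 0.33 and 0.47. Without the 4 libraries this list had -0.02 and 0.13 and the immunoproteasome genes -0.10 and -0.04, so the immunoproteasome medians were then the lower ones. At an unadjusted p below 0.05, 1 of the 22 was higher in WT (Tyk2, a kinase of the interferon receptor; all genes, 4.77%) and 0 were lower, and in TASTPM 1 was higher (Nlrc5; all genes, 2.62%) and 1 lower (B2m; all genes, 1.6%). In the average over genotypes 2 were higher (Tyk2 and Nlrc5; all genes, 5.79%) and 4 lower (Ifnar2, Irf8, B2m and Calr; all genes, 3.46%). In TASTPM 3 of the 22 were higher without overlap, against 2.67% of all genes, and Calr was lower without overlap, against 2.74%. In WT 0 were higher without overlap (all genes, 3.67%), while Irf8, Ifnar2, Ifngr2 and Calr were lower without overlap (all genes, 3.71%). Nlrc5, the activator of class I genes, had 5.22, 42.2 and 46.3 normalized counts under TASTPM Control ST and 164, 83.7, 167 and 221 under TASTPM K/BxN ST, without overlap (log2 fold change 2.69 ± 0.70, adjusted p = 0.964, limma). Leaving out TASTPM Control ST 1, the lowest library, lowered this to 1.74. In WT, however, it had 161, 75.4 and 185 in Control ST and 143, 111, 223 and 195 in K/BxN ST, and the groups overlapped. Irf1, a transcription factor that interferon induces, had 1195, 1154 and 1429 under TASTPM Control ST and 1881, 1441, 1620.1 and 1611 under TASTPM K/BxN ST (log2 fold change 0.38 ± 0.22, adjusted p = 0.964, limma). Stat2, a factor of type I interferon signalling, had 394, 365 and 373 under TASTPM Control ST and 466, 660.1, 600.3 and 495 under TASTPM K/BxN ST (log2 fold change 0.54 ± 0.37, adjusted p = 0.964, limma). These 3 genes were picked because their groups did not overlap in TASTPM. That choice fixed that TASTPM K/BxN ST 3 and 4, low in monocyte markers, also lay above every TASTPM Control ST library. In WT the groups overlapped for each of the 3. The smallest adjusted p of the 22 genes in the interaction was 0.9988 (limma). B2m, the light chain of class I molecules, had 111312, 137215 and 77731 under TASTPM Control ST and 68269.9, 82435, 64935 and 69395 under TASTPM K/BxN ST (log2 fold change -0.58 ± 0.25, adjusted p = 0.964, limma), and the groups overlapped.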

How the data were processed

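RNA from sorted microglia of 14 samples was amplified with SMART-Seq v4 and sequenced. The authors aligned reads with HISAT2 2.1 to mm39 (GRCm39) and counted them per gene with featureCounts 1.5.2. They deposited a normalized signal, each gene's reads over 1 scaling factor of the library. All 100% of values were whole multiples of 1 read (tolerance 0.01), so reads were recovered; they are not independent molecules. Groups were those named above the columns. Replicate numbers match the labels only in TASTPM K/BxN ST, and other libraries are numbered in deposited order. The study counts individual mice as replicates, and its number of mice per group fits that of the libraries, although the labels name no mouse. In no group did 2 libraries agree within sampling noise.

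Of 14336 entries, 7 repeats were left out. The filter kept genes that reached 10 reads in 7 or more libraries. They were tested with limma 3.58.1 (R 4.3.3) on log2(normalized count + 1), 1 fit over 4 groups, with Benjamini-Hochberg adjustment over all genes. Fold changes of low genes depend on the pseudocount. They can be understated or, where a library is at 0, inflated, as for Psmc3ip. Since the unit is a signal, edgeR 4.0.16 and DESeq2 1.42.0 on recovered reads served as alternatives, with other scalings, pseudocounts (0.5 and 10), no filter, left-out libraries and the marker score as covariate. The median over the proteasome genes was added as a summary after the data were seen, and so were its alternatives. Ratios were tested by exact permutation. Scripts were tested on simulated data. Transcript lengths and overlaps are from GENCODE M39, start regions from RefSeq. Genes named were the immunoproteasome set and its counterparts, the other regulators and Psma8, the extremes of each group, and the 3 smallest p-values per comparison. Others named were chosen after their values were seen. Members and lists were chosen with earlier results of these data known. A transgene's name and the values of 1 gene of the pathway lists are not reported here.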

Additional observations from a re-analysis of the deposited data

Results flagged for a closer look

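With 4 libraries, a value was flagged when its gap to the nearest library exceeded Dixon's 95% critical share of the range of its group, and 4 of 108 groups examined were flagged, where chance flags about 1 in 20. Psmc3ip, the meiotic factor that is no subunit, had 160.1 normalized counts in WT K/BxN ST 3, above 49.1 to 66.8 in the 3 others. Psmc6, a 19S ATPase, had 1890 normalized counts in TASTPM K/BxN ST 1, above its 3 fellow libraries. Psmd6, a 19S lid subunit, had 1340 in WT K/BxN ST 4, below the 3 others. The log2 ratio of Psmb10 to Psmb7 was 1.233 in WT K/BxN ST 2, below 1.72 to 1.81 in the 3 others.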

How the results depend on the processing

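No paired analysis was possible because the groups share no replicate number in the labels. No proteasome gene passed the threshold under any alternative run, so the calls depend on none of them, while signs near 0 do. TMM scaling, a pseudocount of 0.5 or 10, no filter on low counts, a fit of the 2 groups compared, edgeR and DESeq2 kept the direction of every immunoproteasome log2 fold change and of each count and ratio for which they were run. Over all genes DESeq2 called 118 higher and 9 lower in WT K/BxN ST where limma called 1, 14 higher and 2 lower in TASTPM K/BxN ST, 171 higher and 8 lower in the average, 4 higher and 8 lower in the interaction and 33 higher and 8 lower in TASTPM against WT under Control ST where limma called 0, and edgeR called 0 in each. The cause was not tested. With the monocyte and neutrophil score as covariate, the median log2 fold change of the 51 genes was -0.029 for K/BxN ST in WT, -0.042 in TASTPM and -0.037 in the average. Reversed log2 fold changes under this setting were -0.29 for Psmb10, -0.11 for Psmb8, -0.065 for Psme1 and -0.029 for Psme2 in WT K/BxN ST, -0.30 for Psmb10 and -0.0041 for Psmb9 in TASTPM K/BxN ST, and -0.29 for Psmb10, -0.037 for Psmb8 and -0.014 for Psme2 in the average. They were also -0.017 for Psmb10 in the interaction, -0.021 for Psmb10 and -0.022 for Psme1 in TASTPM against WT under Control ST, and -0.039 for Psmb10 and -0.029 for Psmb8 under K/BxN ST. Without the 4 libraries high in monocyte markers the median was -0.053 in TASTPM K/BxN ST and -0.061 in the average. Reversed values were then -0.24 for Psmb10, -0.22 for Psmb8, -0.10 for Psme1 and -0.080 for Psme2 in WT K/BxN ST, -0.33 for Psmb10, -0.057 for Psmb9 and -0.042 for Psme2 in TASTPM K/BxN ST, and -0.28 for Psmb10, -0.069 for Psmb8, -0.0010 for Psme1 and -0.061 for Psme2 in the average. They were also -0.091 for Psmb10 in the interaction and -0.070 for Psmb10 in TASTPM against WT under K/BxN ST, and 2 log2 ratios reversed, Psmb8 to Psmb5 in TASTPM against WT under K/BxN ST (0.22) and Psmb10 to Psmb7 in TASTPM K/BxN ST (-0.27). With library totals as scaling the interaction of Psmb10 was -0.022.

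Leaving out 1 library at a time, the median log2 fold change of the 51 genes ran from 0.10 to 0.34 for K/BxN ST in WT, 0.09 to 0.31 in TASTPM, 0.13 to 0.30 in the average, -0.20 to 0.11 in the interaction, 0.05 to 0.28 in TASTPM against WT under Control ST and 0.0039 to 0.25 under K/BxN ST. In WT K/BxN ST, log2 fold changes ran from 0.13 to 0.61 for Psmb8, 0.35 to 0.75 for Psmb9, 0.058 to 0.42 for Psme1 and 0.24 to 0.58 for Psme2. In TASTPM K/BxN ST they ran from 0.29 to 0.75 for Psmb8, 0.18 to 0.73 for Psmb9, 0.11 to 0.65 for Psme1 and 0.19 to 0.73 for Psme2. Log2 fold changes that changed sign ran from -0.14 to 0.14 for Psmb10 in WT K/BxN ST, -0.15 to 0.23 in TASTPM K/BxN ST and -0.059 to 0.13 in the average. In the interaction they ran from -0.17 to 0.20 for Psmb10, -0.084 to 0.42 for Psmb8, -0.32 to 0.23 for Psmb9, -0.13 to 0.41 for Psme1 and -0.22 to 0.33 for Psme2. In TASTPM against WT under Control ST they ran from -0.17 to 0.17 for Psmb10, -0.34 to 0.077 for Psmb8, -0.42 to 0.13 for Psmb9, -0.17 to 0.37 for Psme1 and -0.13 to 0.36 for Psme2, and under K/BxN ST from -0.15 to 0.20 for Psmb10, -0.20 to 0.28 for Psmb8 and -0.056 to 0.40 for Psme2. The log2 ratio of Psmb8 to Psmb5 ran from -0.10 to 0.045 in the average and from -0.20 to 0.00053 in TASTPM against WT under K/BxN ST, and that of Psmb10 to Psmb7 from -0.19 to 0.15 in TASTPM K/BxN ST. The log2 ratio of Psmb9 to Psmb6 ran from 0.23 to 0.46 in the average (exact permutation p = 0.0114 to 0.150) and from -0.63 to -0.36 in TASTPM against WT under K/BxN ST (exact permutation p = 0.0286 to 0.171), with unadjusted p below 0.05 without WT K/BxN ST 3 or TASTPM Control ST 2.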
